A study of Mus musculus with 8 samples.

Results

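The genes of the matrix metalloproteinases (MMPs), their tissue inhibitors (TIMPs), the ADAMTS proteases and the ADAMTS-like proteins were measured in mouse liver. Members were chosen by gene symbol: each row of the count table whose Ensembl identifier maps to Mmp, Timp, Adamts or Adamtsl followed by its number was taken. This gave 51 of the 45706 gene rows, made up of 23 Mmp, 4 Timp, 19 Adamts and 5 Adamtsl genes. Liver RNA was sequenced from 4 C57BL/6 mice labelled HuR KO and 4 C57BL/6 mice labelled HuR WT, with 1 library per mouse. HuR is the RNA-binding protein encoded by Elavl1. Neither the deleted exons, nor the cells that lost them, nor the age of the mice is given in the sources used here.

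MMPs are zinc proteases made as inactive proenzymes, and between them they cleave collagens, laminins, proteoglycans and surface proteins such as E-cadherin. Some are secreted and others are anchored in the cell membrane. TIMPs bind the active site of MMPs, and TIMP3 also inhibits ADAM and ADAMTS proteases. ADAMTS proteases cut proteoglycans, procollagens or von Willebrand factor, whereas the ADAMTS-like proteins have no protease domain and bind the matrix, among other things at fibrillin microfibrils. In the liver these genes are known for the turnover of matrix around bile ducts and in fibrosis, with stellate cells, macrophages and biliary epithelium among their sources.

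The libraries held between 18649618 and 31249286 counted reads, and 14645 genes passed the filter on low counts. The Elavl1 level did not fall below that of WT in the KO libraries, at 50.02 ± 4.33 CPM (reads of a gene relative to the size of its library) in KO and 42.0 ± 6.41 CPM in WT (SD, n = 4 each; edgeR adjusted p = 0.258). The gene count therefore does not check the labels, and every direction given here is between the libraries labelled KO and those labelled WT. WT replicate 3 stood apart: its nearest library was KO replicate 4, and its mean root-mean-square log2 CPM difference was 0.586 to the KO libraries and 0.597 to the other WT libraries. Animals carry either numbers from 98 to 100 (KO replicates 3 and 4, WT replicate 3) or 4-digit numbers (the other 5). The labels do not say what sets these number series apart.

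Of the 51 members, 32 passed the filter and were tested. At an adjusted p under 0.05 (quasi-likelihood test of edgeR, Benjamini-Hochberg adjusted across all genes tested), 8 of the 32 rose in the libraries labelled KO, 0 fell and 24 were not called. Over all genes tested 3.69% were called in either direction. The share of the tested members that rose was thus 25%, beside 2.32% of all genes tested, and 1.37% of all genes fell. The 8 were Mmp7 and Mmp19, the inhibitor gene Timp2, the ADAMTS genes Adamts2, Adamts9, Adamts15 and Adamts16, and the ADAMTS-like gene Adamtsl2. The median log2 fold change of the tested members was 0.54 and 26 were positive, whereas the median over all genes tested was −0.00455 and 49.2% were positive. At an unadjusted p under 0.05, 16 members were higher and 0 lower, beside 9.2% and 8.84% of all genes. In 9 members the lowest KO library lay above the highest WT library and in 0 the reverse held, beside 6.19% and 5.01% of all genes. To be tested, a member had to reach a low-count threshold in as many libraries as a group holds, whichever group they came from. These counts therefore do not speak for the other 19 members. Of the called members, Mmp7 and Adamts16 did not reach the threshold in every WT library and passed through the KO libraries, where they are high. Both are counted in the 25%, and Mmp7 was known to be among the top risers when the families were chosen. The share is therefore a description and not a test of the families. DESeq2 called 10 members higher and limma-voom 6, and neither called a member lower.

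The count depended on single libraries. Leaving out WT replicate 3 gave 12, and leaving out KO replicate 1, KO replicate 3, KO replicate 4 or WT replicate 2 gave 4 each. With WT replicate 1 or WT replicate 4 left out it was 5, and with KO replicate 2 left out it was 8. The number of all genes called higher, 340 with all libraries, moved in these fits too. It was 710 without WT replicate 3 and 302 without KO replicate 2. Leaving out KO replicate 1, KO replicate 3, KO replicate 4 or WT replicate 2 gave 218, 158, 170 and 151 genes. Without WT replicate 1 or WT replicate 4 there were 209 and 250. Mmp7, Timp2, Adamts9 and Adamtsl2 were called under all 18 alternatives run, which include each library left out in turn and each number series alone. The 98 to 100 series has 1 WT library, so its fit assumes that this library varies like the KO libraries, and its calls do not measure the spread among WT mice. The plot of CPM by library shows the 8 called members.

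**Figure D1:**
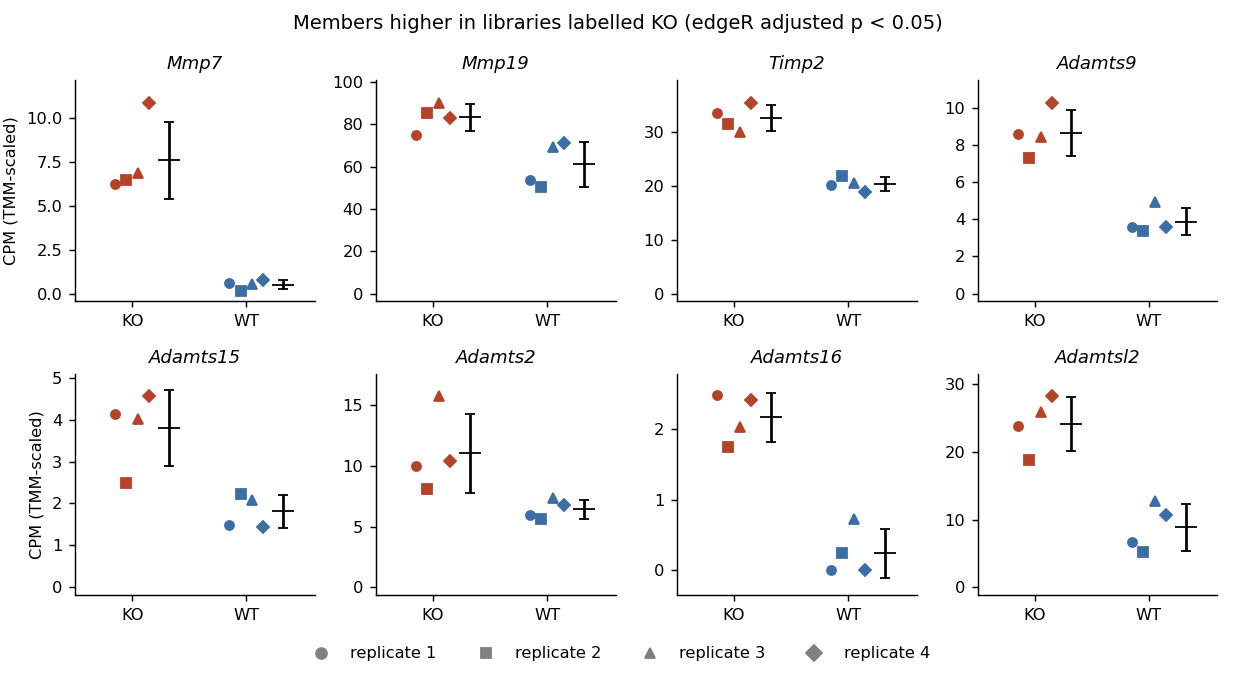
CPM of the 8 called members, with TMM scaling, in the 4 KO libraries (red, left) and the 4 WT libraries (blue, right) of each panel, with 1 symbol per replicate number. The black bar gives the mean and SD of a group; in each panel the lowest KO library lies above the highest WT library.

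Mmp7 encodes matrilysin, an MMP without the hemopexin-like domain that epithelial cells, biliary epithelium among them, secrete. It lies on mm10 chromosome 9 from 7692090 to 7699585 on the plus strand (ENSMUSG00000018623). It was at 6.23, 6.48, 6.88 and 10.9 CPM in KO replicates 1 to 4, against 0.583, 0.164, 0.562 and 0.776 CPM in WT replicates 1 to 4. These levels rest on 161, 187, 177 and 290 reads in the KO libraries and on 16, 4, 17 and 14 reads in the WT libraries. Every KO library was several-fold above the highest WT library, and KO replicate 4 was the highest of all. Mmp7 rose with a log2 fold change of 3.88 (SE 0.34, edgeR adjusted p = 6.15e-05), which is 14.7-fold (unadjusted 95% interval 8.93 to 24.3). The log2 fold change was 3.67 in the 4-digit series and 3.97 in the 98 to 100 series, where WT is a single library. Leaving out single libraries gave 3.59 to 4.08.

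Per length of transcript, Mmp7 was among the leading members in the libraries labelled KO and a minor one in those labelled WT. Its level was 7.14 ± 2.06 RPKM (CPM per kilobase of exon) in KO and 0.488 ± 0.24 RPKM in WT (SD, n = 4 each). By mean RPKM it ranked 4 of the 51 members in KO and 17 in WT. In KO its neighbours in that order were Timp2 at 8.38 ± 0.605 RPKM, Mmp15 at 7.03 ± 0.773 RPKM and Timp3 at 6.55 ± 0.583 RPKM, which do not differ from Mmp7 beyond its spread. Mmp7 made up 10.2%, 10.3%, 10.3% and 16.9% of the summed RPKM of all Mmp genes in KO replicates 1 to 4, against 1.22%, 0.373%, 1.05% and 1.51% in WT replicates 1 to 4.

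**Figure D2:**
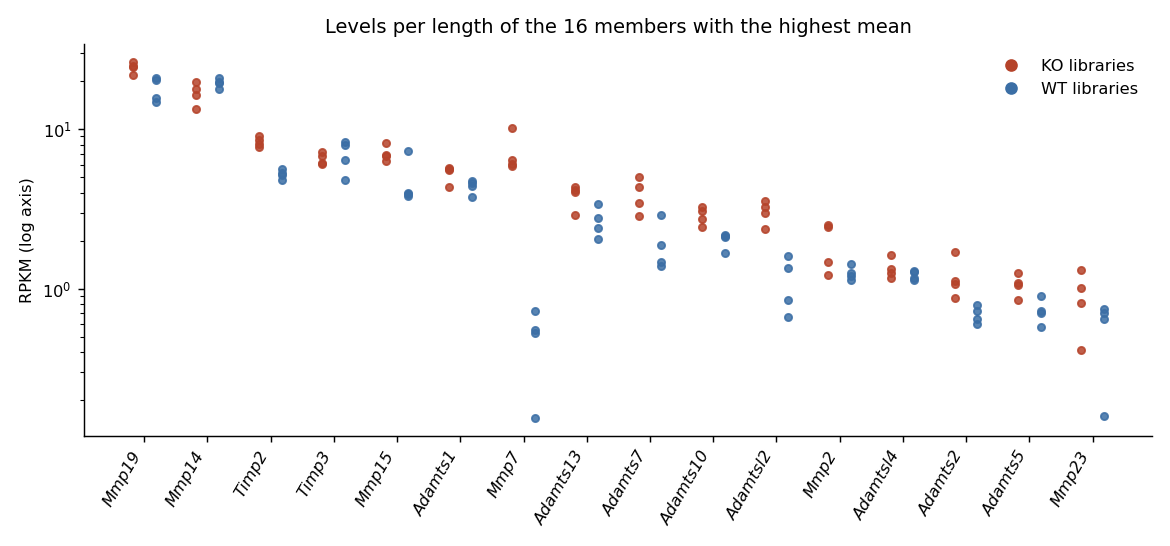
Level per length (RPKM, log axis) of the 16 members with the highest mean over all libraries, with 1 point per library, KO in red on the left and WT in blue on the right of each gene. Mmp19 and Mmp14 lead in both groups, and Mmp7 shows the widest gap, from 5.83 to 10.2 RPKM in KO against 0.154 to 0.727 RPKM in WT.

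Mmp7 is the last gene of a cluster of 10 Mmp genes that spans 427 kb of chromosome 9 in the deposited annotation, from 7272514 to 7699585. Apart from Mmp12, the other cluster members were at or near 0 in both groups. Mmp1a, Mmp1b and Mmp20 had 0 counts in all 8 libraries, which allows up to 0.0145 CPM over the 8 libraries together. Mmp10 had 1 read in all, in WT replicate 3, and Mmp27 had 10 reads, with another annotated gene overlapping it on the same strand. Mmp3, stromelysin-1, had 5, 5, 0 and 6 reads in KO replicates 1 to 4 and 0, 0, 4 and 0 reads in WT replicates 1 to 4. Mmp13, the main interstitial collagenase of rodents, had 8, 0, 6 and 8 reads in KO and 5, 1, 7 and 0 reads in WT. Mmp8, the collagenase of neutrophils, had 3, 0, 6 and 3 reads in KO and 13, 6, 9 and 0 reads in WT. None of these 8 genes passed the filter, and their libraries overlap or lie at the counting floor.

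Mmp12, macrophage elastase, was the only cluster member tested besides Mmp7. Its level was 0.581, 0.832, 1.48 and 1.05 CPM in KO replicates 1 to 4, against 0.328, 0.575, 1.22 and 0.721 CPM in WT replicates 1 to 4. The groups overlap, and the log2 fold change of 0.46 (SE 0.46, edgeR adjusted p = 0.658) was not called. Within 500 kb of Mmp7, 6 further named genes were tested and 0 were called, with log2 fold changes from −0.04 to 0.85. The nearest of them, Tmem123, was at 54.4 ± 2.34 CPM in KO and 52.9 ± 6.09 CPM in WT. Yap1, a transcriptional coactivator of the Hippo pathway, was at 90.7 ± 6.21 CPM in KO and 85.6 ± 7.6 CPM in WT (SD, n = 4 each; edgeR adjusted p = 0.696). An annotated antisense gene that overlaps Mmp7, AV064505, had 0 counts, and the counting used strand.

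**Figure D3:**
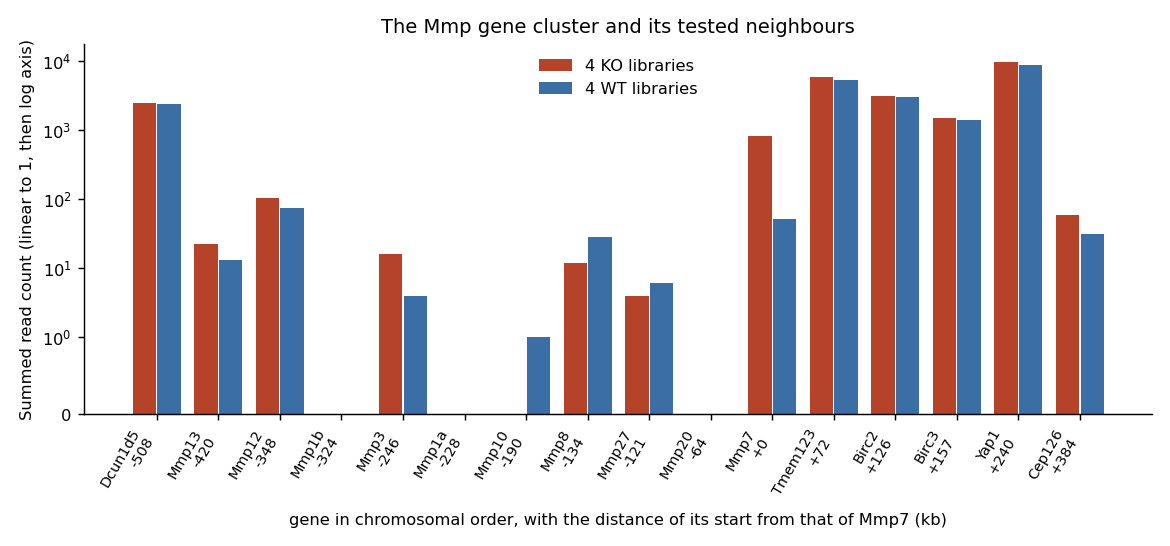
Summed read counts (axis linear to 1 and logarithmic above) of the 10 Mmp genes of the chromosome 9 cluster and of the tested neighbours, in chromosomal order, over the 4 KO libraries (red, left bar) and the 4 WT libraries (blue, right bar); the number under each name is the distance of its start from that of Mmp7 in kb. Among the cluster genes Mmp7 has the largest gap in reads, with 815 in KO and 51 in WT. Mmp3 (16 and 4 reads), Mmp8 (12 and 28 reads) and Mmp10 also have unequal bars, which rest on few reads. The neighbours on both sides have bars of nearly equal height apart from Cep126, which had few reads.

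The promoters of the cluster genes are shown because inducible MMP promoters are known for a TATA box and a nearby site for the transcription factor AP-1. Sequences are RefSeq windows of build GRCm38.p6, 250 bases before to 50 bases after the start site, and 35 of the 51 members had a window whose start lay within 1000 bases of the gene end in the count table. The motifs searched on both strands were AP-1 as TGAGTCA, the ETS motif PEA3 as AGGAAG, the TATA box as TATAAA, the GC box as GGGCGG and the TCF motif as ATCAAAG. No pair of these matches overlaps in the 4 whole windows printed further on. AP-1 letters were found in 6 of the 35 member windows (17.1%), beside 5.2% of all 32851 windows, and all 6 belong to genes of the cluster. A TATA box was found in 11 of the 35 (31.4%), beside 13.6% of all windows. Among the 20 tested members with a window the shares were close to those of all windows, with AP-1 letters in 1 (5.0%) and a TATA box in 15.0%. The 81 bases that end at the start site are printed 5′ to 3′, with AP-1 and TATA letters in capitals, for these 6 genes.
Mmp7 (chr9:7692010-7692090, plus strand): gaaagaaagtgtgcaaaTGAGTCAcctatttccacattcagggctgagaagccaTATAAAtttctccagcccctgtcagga
Mmp10 (chr9:7502262-7502342, plus strand): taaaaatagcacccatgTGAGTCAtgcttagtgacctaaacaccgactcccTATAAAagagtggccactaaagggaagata
Mmp3 (chr9:7445742-7445822, plus strand): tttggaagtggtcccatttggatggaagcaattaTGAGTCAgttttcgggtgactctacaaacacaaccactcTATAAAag
Mmp13 (chr9:7272434-7272514, plus strand): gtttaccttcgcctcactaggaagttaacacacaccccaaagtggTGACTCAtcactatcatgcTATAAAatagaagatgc
Mmp1a (chr9:7464061-7464141, plus strand): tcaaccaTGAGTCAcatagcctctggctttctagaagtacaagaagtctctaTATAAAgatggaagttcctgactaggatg
Mmp1b (chr9:7388026-7388106, minus strand): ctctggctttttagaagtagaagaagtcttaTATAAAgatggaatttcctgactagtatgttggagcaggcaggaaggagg
Mmp7 and Mmp10 have the AP-1 letters at the same place, position −63 from the start site, and the TATA letters at −26 and −29. In Mmp1b the AP-1 letters begin at −93 and so lie before the printed bases. Of these 6 genes Mmp7 alone was tested, and it was called. The others did not pass the low-count filter and so could not be called. Such matches are a description of letters in a window and not of bound sites.

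The whole windows of the 4 members called under all alternatives are shown to compare Mmp7 with the others, with the letters of all 5 motifs in capitals.
Mmp7 (chr9:7691840-7692139, plus strand): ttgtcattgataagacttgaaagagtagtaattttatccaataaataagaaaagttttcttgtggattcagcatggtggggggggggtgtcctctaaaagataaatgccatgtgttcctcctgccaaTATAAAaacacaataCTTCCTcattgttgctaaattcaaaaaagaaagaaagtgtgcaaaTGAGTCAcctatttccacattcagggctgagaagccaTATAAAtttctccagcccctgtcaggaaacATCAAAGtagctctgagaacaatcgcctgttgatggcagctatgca
Timp2 (chr11:118355362-118355661, minus strand): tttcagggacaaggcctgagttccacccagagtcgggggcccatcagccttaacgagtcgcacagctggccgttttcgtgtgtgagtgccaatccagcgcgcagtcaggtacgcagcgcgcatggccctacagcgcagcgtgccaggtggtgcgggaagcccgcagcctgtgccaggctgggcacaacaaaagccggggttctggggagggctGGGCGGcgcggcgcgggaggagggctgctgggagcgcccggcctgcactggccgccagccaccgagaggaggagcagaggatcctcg
Adamts9 (chr6:92943485-92943784, minus strand): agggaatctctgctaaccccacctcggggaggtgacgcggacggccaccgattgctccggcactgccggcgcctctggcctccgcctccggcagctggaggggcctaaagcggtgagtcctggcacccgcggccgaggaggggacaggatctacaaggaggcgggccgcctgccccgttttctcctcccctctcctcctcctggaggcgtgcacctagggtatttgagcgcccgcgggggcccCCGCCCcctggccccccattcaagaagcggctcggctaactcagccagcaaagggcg
Adamtsl2 (chr2:27079129-27079428, plus strand): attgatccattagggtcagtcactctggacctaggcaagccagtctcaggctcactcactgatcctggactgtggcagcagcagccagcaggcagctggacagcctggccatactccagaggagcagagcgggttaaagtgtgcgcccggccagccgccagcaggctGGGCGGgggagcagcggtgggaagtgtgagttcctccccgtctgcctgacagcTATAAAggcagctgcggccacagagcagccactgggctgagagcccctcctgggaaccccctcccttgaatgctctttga
The Mmp7 window holds the letters of AP-1, PEA3, TCF and 2 TATA boxes and no GC box, and the combination of AP-1, PEA3 and TATA letters occurs in 0.326% of all windows. The windows of Mmp13, Mmp1a, Mmp1b and Mmp3, which were not tested, hold the same combination. The Timp2 and Adamts9 windows hold a GC box and none of the other 4 motifs, and the Adamtsl2 window holds a GC box and a TATA box. A GC box was found in 57.1% of member windows and in 35.7% of all windows. Among the 20 tested members with a window the share was 80.0%, and it was the same 80.0% among the 5 called members with a window. No match says only that these letters are not in the window.

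Among the other Mmp genes, Mmp19 rose and none of the remaining tested genes was called. Mmp19 encodes a secreted MMP that cleaves basement membrane proteins and has the highest level per length of all members in KO (24.5 RPKM, n = 4) and the second place after Mmp14 in WT (17.9 RPKM, n = 4). It was at 75.0, 85.3, 90.3 and 83.2 CPM in KO replicates 1 to 4, against 53.5, 50.4, 69.4 and 71.2 CPM in WT replicates 1 to 4. The groups do not overlap, but WT replicates 3 and 4 come close to the lowest KO library. Mmp19 had a log2 fold change of 0.45 (SE 0.12, edgeR adjusted p = 0.0482). The call was lost under 9 of 18 alternatives, among them RLE scaling (adjusted p = 0.0509), each number series alone, and the libraries left out one at a time apart from WT replicates 3 and 4.

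Of the membrane-type (MT) MMPs, Mmp14 and Mmp15 were abundant and not called, Mmp17 was low and not called, and Mmp16, Mmp24 and Mmp25 were not tested. Mmp14 encodes MT1-MMP, a membrane collagenase that activates the Mmp2 proenzyme together with TIMP2. It was at 84.5, 76.3, 70.7 and 57.2 CPM in KO replicates 1 to 4, against 89.8, 83.6, 77.2 and 85.5 CPM in WT replicates 1 to 4. Its log2 fold change was −0.22 (SE 0.11, edgeR adjusted p = 0.322), with an unadjusted 95% interval from −0.46 to 0.02. Mmp14 held 28.2% ± 5.21 of the summed Mmp RPKM in KO and 42.7% ± 5.25 in WT, whereas Mmp19 held 40.9% ± 1.96 in KO and 38.7% ± 3.99 in WT (SD, n = 4 each).

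Mmp15, which encodes the membrane-anchored MT2-MMP, was high in 1 WT library. Its level was 29.4, 27.6, 35.4 and 29.9 CPM in KO replicates 1 to 4, against 17.4, 16.6, 31.8 and 17.1 CPM in WT replicates 1 to 4. WT replicate 3 lay within the KO range and the other WT libraries lay well below it. Over the 8 libraries its log2 fold change was 0.56 (SE 0.2, edgeR adjusted p = 0.172). It was 0.85 without WT replicate 3 (adjusted p = 0.00054), 0.75 in the 4-digit series (adjusted p = 0.0085) and 0.03 in the 98 to 100 series, where WT replicate 3 is the only WT library. With the number series as a covariate over the 8 libraries it was called (log2 fold change 0.48, edgeR adjusted p = 0.0419). Whether the effect differs between the series was not tested.

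Mmp2, gelatinase A of fibroblasts and stellate cells, was at 3.68, 4.44, 7.38 and 7.56 CPM in KO replicates 1 to 4, against 3.83, 3.62, 4.33 and 3.44 CPM in WT replicates 1 to 4. The groups overlap: KO replicate 1 lay in the WT range and KO replicate 2 just above it, whereas KO replicates 3 and 4 stood well above. The log2 fold change of Mmp2 was 0.16 in the 4-digit series and 0.78 in the 98 to 100 series, where WT is a single library. The difference between the series was not tested. Mmp11, stromelysin-3, was at 1.82, 0.832, 1.86 and 2.33 CPM in KO and 0.911, 0.986, 0.859 and 0.832 CPM in WT, with KO replicate 2 in the WT range. Their log2 fold changes of 0.59 (SE 0.24, adjusted p = 0.199) and 0.92 (SE 0.35, adjusted p = 0.175, both edgeR) were not called. Mmp9, gelatinase B, which neutrophils and macrophages release, was at 0.917 ± 0.477 CPM in KO and 1.69 ± 0.786 CPM in WT (SD, n = 4 each), a log2 fold change of −0.90 (SE 0.46, edgeR adjusted p = 0.324). Mmp12, Mmp17, Mmp23 and Mmp28 were not called, with log2 fold changes from −0.63 to 0.65. Outside the cluster, Mmp21 and Mmp24 had 0 counts, and Mmp16 and Mmp25 did not pass the filter.

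Of the inhibitors, Timp2 rose and Timp3 was not called. Timp2 lies on mm10 chromosome 11 from 118301069 to 118355740 on the minus strand (ENSMUSG00000017466). It was at 33.5, 31.5, 30.1 and 35.5 CPM in KO replicates 1 to 4, against 20.2, 21.8, 20.6 and 18.8 CPM in WT replicates 1 to 4. The libraries of each group lie close together and the groups are far apart. The log2 fold change was 0.68 (SE 0.1, edgeR adjusted p = 0.00194), which is 1.602-fold (unadjusted 95% interval 1.39 to 1.85). It was 0.68 in the 4-digit series and 0.67 in the 98 to 100 series.

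Timp3, the inhibitor that binds to the matrix, was at 55.6, 59.0, 49.6 and 49.3 CPM in KO replicates 1 to 4, against 65.2, 67.4, 39.3 and 51.9 CPM in WT replicates 1 to 4. The KO values lie inside the WT range. Its log2 fold change was −0.07 (SE 0.15, edgeR adjusted p = 0.864), with an unadjusted interval from −0.39 to 0.25, and it turned to 0.33 in the 98 to 100 series. Timp1, the inhibitor often measured as a readout of liver fibrosis, had 6, 0, 4 and 0 reads in KO replicates 1 to 4 and 3, 0, 2 and 6 reads in WT replicates 1 to 4. It did not pass the filter, and no difference was detectable at this depth. Timp4 had 0 counts in all libraries.

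The balance of inhibitors and MMPs, taken as summed levels per length, overlapped between the groups. The summed Mmp RPKM was 59.8 ± 2.16 in KO and 46.0 ± 3.85 in WT, and the summed Timp RPKM was 15.0 ± 0.738 in KO and 12.2 ± 1.69 in WT (SD, n = 4 each). The ratio of Timp to Mmp RPKM was 0.273, 0.26, 0.224 and 0.251 in KO replicates 1 to 4, against 0.297, 0.337, 0.204 and 0.24 in WT replicates 1 to 4. Within the Timp sum, Timp2 took 55.7% ± 3.11 in KO and 43.2% ± 5.91 in WT. These are RNA levels, from which neither protein nor protease activity can be read.

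Of the ADAMTS proteases, 14 of 19 were tested, 4 rose, 0 fell and 10 were not called. Their median log2 fold change was 0.58. Adamts9, which cleaves versican and aggrecan, lies on mm10 chromosome 6 from 92772699 to 92943492 on the minus strand (ENSMUSG00000030022). It was at 8.55, 7.32, 8.43 and 10.3 CPM in KO replicates 1 to 4, against 3.61, 3.37, 4.92 and 3.60 CPM in WT replicates 1 to 4. All KO libraries lay above all WT libraries, of which WT replicate 3 was the highest. Adamts9 rose with a log2 fold change of 1.15 (SE 0.18, edgeR adjusted p = 0.00309), which is 2.22-fold, and with 1.17 and 0.92 in the 4-digit and the 98 to 100 series.

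Adamts2 encodes the proteinase that removes the amino-terminal propeptide of fibrillar procollagens. It was at 9.99, 8.15, 15.7 and 10.4 CPM in KO replicates 1 to 4, against 5.98, 5.63, 7.34 and 6.77 CPM in WT replicates 1 to 4. KO replicate 3 was well above the other KO libraries. Adamts2 rose with a log2 fold change of 0.78 (SE 0.19, edgeR adjusted p = 0.0368). Without KO replicate 3 it was 0.56 (adjusted p = 0.126), and the call was also lost on leaving out KO replicate 1 or 4 or WT replicate 1, 2 or 4, with limma-voom and in the 4-digit series.

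Adamts15, like Adamts9 a protease of versican and aggrecan, was at 4.14, 2.50, 4.00 and 4.55 CPM in KO replicates 1 to 4, against 1.49, 2.22, 2.08 and 1.44 CPM in WT replicates 1 to 4. KO replicate 2 lay just above WT replicate 2. Its log2 fold change was 1.06 (SE 0.26, edgeR adjusted p = 0.0368). The call was lost under 10 of 18 alternatives, among them 6 of the 8 fits with a library left out, all but those without KO replicate 2 or WT replicate 3, and each number series alone.

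Adamts16, a protease described mainly in kidney and gonads, was near 0 in the libraries labelled WT. It had 64, 50, 52 and 64 reads in KO replicates 1 to 4, and 0, 6, 22 and 0 reads in WT replicates 1 to 4. In CPM that was 2.48, 1.73, 2.02 and 2.41 in KO and 0, 0.247, 0.727 and 0 in WT. Every KO library was above WT replicate 3, the highest WT library. The log2 fold change was 3.004 (SE 0.73, edgeR adjusted p = 0.0476), and the unadjusted 95% interval ran between 2.63-fold and 24.4-fold. Leaving out WT replicate 3 gave 4.58 and leaving out WT replicate 1 gave 2.57, both called. The call was lost under 10 of 18 alternatives, among them DESeq2 (adjusted p = 0.0907), the 98 to 100 series (log2 fold change 1.597), and the fits without WT replicate 2 or 4 or any 1 of the KO libraries.

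Adamts7, Adamts10 and Adamts13 missed the threshold by a small margin. Adamts7, a protease of cartilage oligomeric matrix protein, was at 27.4, 31.4, 18.02 and 21.5 CPM in KO replicates 1 to 4, against 9.26, 8.71, 18.3 and 11.8 CPM in WT replicates 1 to 4. WT replicate 3 lay above KO replicate 3, so that the groups overlap by this library alone. Its log2 fold change was 1.03 (SE 0.26, edgeR adjusted p = 0.0589). It was 1.32 without WT replicate 3 (adjusted p = 0.00114), 1.58 in the 4-digit series (adjusted p = 6.17e-05) and 0.11 in the 98 to 100 series, where WT replicate 3 is the only WT library, and the difference between the series was not tested.

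Adamts10, which acts at fibrillin microfibrils, was at 14.9, 13.2, 16.7 and 17.6 CPM in KO replicates 1 to 4, against 11.9, 9.08, 11.5 and 11.7 CPM in WT replicates 1 to 4. The groups do not overlap, and the log2 fold change was 0.50 (SE 0.14, edgeR adjusted p = 0.0568). Adamts13, which cleaves von Willebrand factor and is made in the liver mainly by stellate cells, was at 21.4, 14.4, 19.7 and 20.5 CPM in KO and 11.8, 10.1, 16.7 and 13.6 CPM in WT. KO replicate 2 lay below WT replicate 3, and the log2 fold change was 0.54 (SE 0.17, edgeR adjusted p = 0.0875). Leaving out WT replicate 3 brought both past the threshold (edgeR adjusted p = 0.0427 for Adamts10 and 0.0151 for Adamts13), as did leaving out KO replicate 2 (0.0456 and 0.0461). Adamts10 was called under 7 of 18 alternatives in all and Adamts13 under 5, DESeq2 among them for both.

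Of the remaining ADAMTS genes, Adamts5, an aggrecanase, was at 10.1, 6.83, 8.78 and 8.50 CPM in KO replicates 1 to 4, against 5.65, 7.32, 4.63 and 5.88 CPM in WT replicates 1 to 4. Adamts1, a protease of versican, was at 29.2, 30.2, 23.0 and 29.8 CPM in KO replicates 1 to 4, against 25.1, 23.4, 19.9 and 24.2 CPM in WT replicates 1 to 4. KO replicate 2 for Adamts5 and KO replicate 3 for Adamts1 lay in the WT range. Their log2 fold changes of 0.54 (SE 0.18, adjusted p = 0.107) and 0.28 (SE 0.12, adjusted p = 0.216, both edgeR) were not called, although Adamts5 was called in the 98 to 100 series. The aggrecanase gene Adamts4 was at 0.19, Adamts3 at −0.27, Adamts6 at −0.08, Adamts12 at 0.65 and Adamts14 at 0.62 on the log2 fold change scale, and edgeR called none of these 5. Adamts18, Adamts19 and Adamts20 had 0 counts, and Adamts8 and Adamts17 had at most 2 reads in any library apart from 3 reads of Adamts8 in KO replicate 3.

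Of the 5 ADAMTS-like genes, all of which were tested, Adamtsl2 rose and 4 were not called. Adamtsl2 encodes a secreted glycoprotein that binds fibrillin-1 and latent TGF-beta binding protein, and it lies on mm10 chromosome 2 from 27079379 to 27108981 on the plus strand (ENSMUSG00000036040). It was at 23.9, 18.8, 25.9 and 28.2 CPM in KO replicates 1 to 4, against 6.74, 5.30, 12.8 and 10.7 CPM in WT replicates 1 to 4. All KO libraries lay above all WT libraries. The log2 fold change was 1.45 (SE 0.26, edgeR adjusted p = 0.0152), which is 2.72-fold (unadjusted 95% interval 1.83 to 4.05). It was 1.51 in the 4-digit series and 1.08 in the 98 to 100 series, and single libraries left out gave 1.26 to 1.69, with an adjusted p of up to 0.0499 (edgeR, without KO replicate 3).

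The other ADAMTS-like genes were not called. Adamtsl4 was at 5.26, 4.92, 5.56 and 6.80 CPM in KO replicates 1 to 4, against 5.39, 4.89, 4.73 and 5.32 CPM in WT replicates 1 to 4, with a log2 fold change of 0.15 (SE 0.17, edgeR adjusted p = 0.702). Adamtsl5 was at 1.01, 0.659, 0.699 and 0.789 CPM in KO replicates 1 to 4, against 0.911, 0.617, 0.76 and 0.555 CPM in WT replicates 1 to 4. The groups overlap for both genes. Adamtsl1, Adamtsl3 and Adamtsl5 had log2 fold changes of 0.77, 0.20 and 0.14. The sign of Adamtsl4 turned in the 4-digit series, and that of Adamtsl5 turned in the 98 to 100 series and without KO replicate 1.

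**Figure D4:**
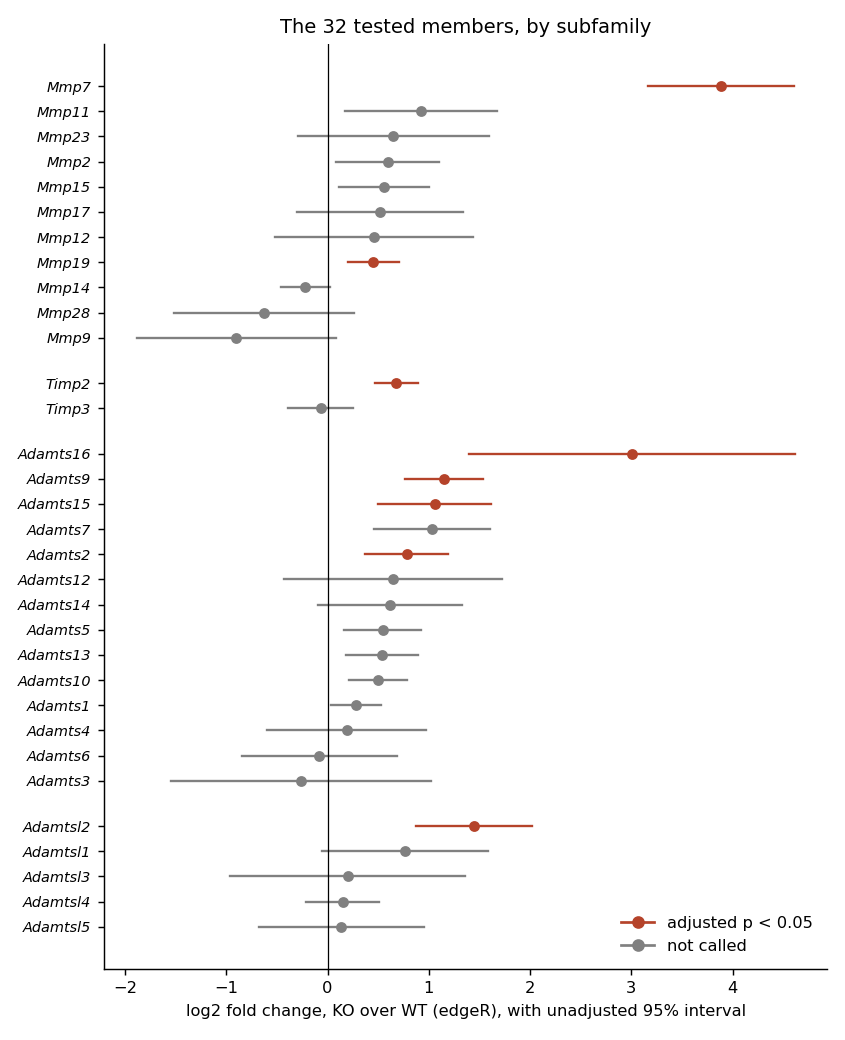
log2 fold change of KO over WT for the 32 tested members, ordered by size within each subfamily, with unadjusted 95% intervals; red marks the 8 members with an edgeR adjusted p under 0.05. The red points all lie above 0, from 0.45 for Mmp19 to 3.88 for Mmp7, and 6 of the 24 grey points lie below 0.

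HuR is known to bind AU-rich elements in the 3′ untranslated regions (UTRs) of mRNAs, so these letters, written with T, were counted in the longest annotated 3′ UTR of each tested member (GENCODE M21, GRCm38). The nonamer TTATTTATT was found in 4 of the 32 tested members (12.5%), beside 7.88% of 12747 tested genes with a 3′ UTR. The 4 were Mmp9, Adamts5, Adamts9 and Adamtsl1, and of these Adamts9 was called. The pentamer ATTTA occurred in 27 of the 32 members (84.4%) and in 69.8% of all such genes, where the member UTRs had a median length of 1649 bases and all UTRs one of 1166 bases. Mmp7, with a UTR of 228 bases, and Timp2, with one of 2630 bases, held 0 pentamers, Adamtsl2 held 1 and Adamts9 held 4. The median density was 0.826 pentamers per kilobase in the 8 called members, 1.564 in the 32 tested members and 1.302 in all genes.

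The genes that work with these families were described from 7 lists. Over all lists 21 genes rose and 0 fell, and 10 of the 21 were in the substrate list. The tested genes were 18 substrates, 10 protease inhibitors, 12 activators, 10 ADAM proteases, 13 docking partners, 11 ADAMTS relatives and 15 transcription factors. Of all genes tested 2.32% rose and 1.37% fell. At the level of single lists, 10 of 18 tested substrates rose, with a median log2 fold change of 0.51. Spp1, which encodes osteopontin, an MMP7 substrate, was at 124, 135, 195 and 210.5 CPM in KO replicates 1 to 4, against 46.1, 33.6, 55.0 and 37.7 CPM in WT replicates 1 to 4, and rose with a log2 fold change of 1.94 (SE 0.21, edgeR adjusted p = 0.00163). All KO libraries lay above all WT libraries. Col4a1, which encodes a type IV collagen chain, rose with 0.62 and Bgn, the proteoglycan biglycan, with 0.54. Col1a1, Col1a2, Col3a1, Col4a2, Eln and Cdh1, the gene of E-cadherin, rose as well. The proteoglycan substrates Acan, Vcan, Bcan and Ncan did not pass the filter. The count of substrates was 6 without KO replicate 4 or WT replicate 2.

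Of 10 tested protease inhibitors other than TIMPs, 3 rose and 7 were not called. Serpine2, protease nexin-1, was at 7.12, 6.28, 6.25 and 7.18 CPM in KO replicates 1 to 4, against 2.44, 1.603, 2.11 and 2.38 CPM in WT replicates 1 to 4 (log2 fold change 1.65, SE 0.2, edgeR adjusted p = 0.000543). Spint1, which encodes HAI-1, an inhibitor of membrane serine proteases, rose with 2.58 and Serpinf2, alpha-2-antiplasmin, with 0.49. Of 12 activators of proenzymes 1 rose: St14, which encodes matriptase, a protease that HAI-1 inhibits, was at 4.78 ± 1.14 CPM in KO and 1.18 ± 0.482 CPM in WT (SD, n = 4 each), a log2 fold change of 2.01 (SE 0.31, edgeR adjusted p = 0.00276). The count of this list was 1 in each fit with 1 library left out.

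Of 11 tested relatives of the ADAMTS genes, Thsd4, which encodes ADAMTS-like 6, and Ltbp3 rose, with log2 fold changes of 1.35 and 0.89 and a list median of 0.44. The count was 1 without KO replicate 1, KO replicate 4, WT replicate 1 or WT replicate 2. Of 13 docking and uptake partners Cav1, Cd63 and Cd9 rose with 1.03, 1.23 and 0.63, and the count was 0 without KO replicate 4 or WT replicate 2 and 1 without KO replicate 3. Adam33 was the 1 of 10 ADAM proteases called (log2 fold change 1.19, edgeR adjusted p = 0.0388), and with a library left out the list had 1 call without WT replicate 3 and 0 in the other 7 fits. Sox9 was the 1 called of 15 transcription factors (1.02, edgeR adjusted p = 0.0324). Leaving out KO replicate 3, KO replicate 4, WT replicate 1 or WT replicate 2 gave 0 there, leaving out KO replicate 2 gave 2 and leaving out WT replicate 3 gave 3. The medians of the docking, ADAM and activator lists were 0.03, −0.02 and 0.00364.

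In the same comparison, most markers of bile duct cells and a few of stellate cells and fibroblasts were called higher. Of 13 tested markers of bile duct cells 10 rose and 0 fell, beside 2.32% and 1.37% of all genes tested. Their median log2 fold change was 2.04. The 14 listed markers summed to 67.9 to 101 CPM in the KO libraries and 34.5 to 39.2 CPM in the WT libraries. The count of called bile duct markers was 8 without KO replicate 4, WT replicate 1 or WT replicate 2. It was 9 without KO replicate 1, KO replicate 3 or WT replicate 4, 10 without WT replicate 3 and 11 without KO replicate 2. The keratin gene Krt7 was at 2.21, 2.36, 3.50 and 4.10 CPM in KO replicates 1 to 4, against 0.401, 0.658, 0.727 and 0.721 CPM in WT replicates 1 to 4. Of 14 markers of stellate cells and fibroblasts Cygb and Lum rose, with a median of 0.42 and summed levels of 296 to 360 CPM in KO and 246 to 276 CPM in WT. That count was 1 without KO replicate 1, KO replicate 3, KO replicate 4 or WT replicate 2. None of the bile duct or stellate cell markers was at 0 in all libraries. The part of bile duct cells or stellate cells in the rise of Mmp7 and of the matrix genes was not tested, and in whole liver RNA more cells of a type and more RNA per cell cannot be told apart.

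Markers of the remaining cell types were not called in the edgeR comparison described above. Hepatocyte and lymphocyte markers had 1 lower call each with DESeq2, without a low-count filter and without WT replicate 3, and hepatocyte markers had 1 lower call with the number series as a covariate and in the 98 to 100 series. The summed endothelial markers were at 534 to 599 CPM in KO and 498 to 560 CPM in WT, and the macrophage markers at 529 to 667 CPM in KO and 499.958 to 613 CPM in WT. Neutrophil markers, of which 5 of 12 were tested, summed to 5.13 to 9.6 CPM in KO and 4.05 to 12.5 CPM in WT, and lymphocyte markers to 26.1 to 31.5 CPM in KO and 27.1 to 43.2 CPM in WT. The medians were 0.05 for endothelial cells, 0.07 for macrophages, −0.40 for neutrophils, −0.13 for lymphocytes and −0.12 for hepatocytes. At an unadjusted p under 0.05 there were 2, 0, 1, 1 and 1 markers of these 5 lists, of 12, 12, 5, 9 and 12 tested. Of all genes tested 9.2% were higher and 8.84% lower at that threshold. Hepatocyte markers summed to 124700 to 149427 CPM in KO and 138840 to 152978 CPM in WT, so the tissue label fits its defining markers.

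**Figure D5:**
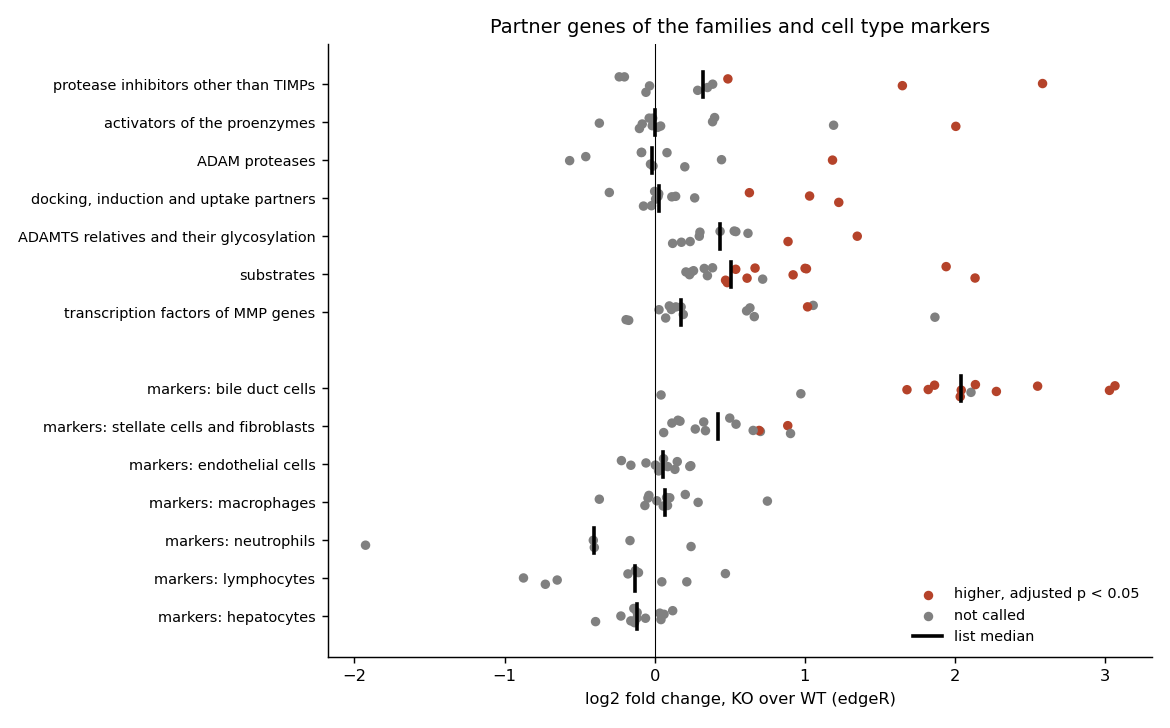
log2 fold change of KO over WT for each tested gene of the 7 partner lists (above) and the 7 cell type marker lists (below), with 1 point per gene; red marks genes with an edgeR adjusted p under 0.05 and the black bar is the list median. The bile duct markers lie furthest to the right with a median of 2.04, and the substrates have the most red points among the partner lists with 10.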

How the data were processed

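The authors deposited raw read counts per gene for 8 liver libraries, 4 labelled KO and 4 labelled WT. Per the labels' protocols, mRNA was made into libraries with a directional kit. The submitters' processing notes name bcl2fastq 2.19.1, the aligner GSNAP, featureCounts 1.5.1 and the build mm10. Per the file headers, counting used the Ensembl 81 annotation, strand setting 2 and a minimum mapping quality of 1, without options for multi-mapping or multi-overlapping reads, so such reads are left out. The deposited exon length per gene, another value of the table, was used for RPKM. The 92 spike-in rows held 0 counts and were not used.

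Symbols came from a table of gene identifiers. Counts were tested in R 4.3.3 with edgeR 4.0.16: filterByExpr (minimum count 10), TMM scaling, glmQLFit with robust estimation and glmQLFTest, with Benjamini-Hochberg adjustment over 14645 genes and a threshold of 0.05. The step was tested on simulated data. SE was derived from the F statistic. CPM and RPKM use TMM-scaled library sizes. Intervals and floors (3 counts) cover counting error or fit error only. Alternatives were RLE and upper quartile scaling, no filter, a stricter filter (CPM of at least 1 in 4 libraries), DESeq2 1.42.0, limma-voom (limma 3.58.1), the replicate number as a block, the number series as a covariate or alone, and each library left out.

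Each library carries its own animal number in the labels and was counted as a replicate on that ground. No pair of libraries of a group agreed within sampling noise (smallest chi-square per degree of freedom 17.0), so none is a copy of another library of its group. Pairs of a KO and a WT library were not checked in this way. That check cannot show that the libraries come from separate mice. The members, lists and tests were chosen with earlier results of these data known, the rise of Mmp7 among them. Values per library are given for called members, members at an unadjusted p under 0.05, the 3 members of highest mean RPKM in each subfamily, and the chromosome 9 cluster; in each partner list up to 4 called genes in order of p were to be named, and further called genes are named without values. Neighbours of Mmp7 and sequence motifs were chosen after the values were seen. One called gene of the substrate list is counted but not reported here.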

Additional observations from a re-analysis of the deposited data

Results flagged for a closer look

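Among 40 groups of 4 libraries examined for the named members, 5 had a library far from the other 3 (a gap above Dixon's 95% critical value), and about 1 in 20 groups does so by chance. The values in CPM were 10.9 for Mmp7 in KO replicate 4, 23.0 for Adamts1 in KO replicate 3, 31.8 for Mmp15 and 4.92 for Adamts9 in WT replicate 3, and 9.08 for Adamts10 in WT replicate 2. Without KO replicate 4 the log2 fold change of Mmp7 was 3.66, and without WT replicate 3 that of Adamts9 was 1.29.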

How the results depend on the processing

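Over the 18 alternatives, Mmp7 was called in all, with log2 fold changes from 3.59 to 4.08, and no member was called lower in any. The count of members called higher was 6 to 10 outside the fits that leave out a library, which gave 4 to 12. The count of partner genes called higher, 21, was 13 in the 4-digit series and 10 to 27 with libraries left out. The count of partner genes called lower, 0, was 1 with DESeq2 and 2 among the animals numbered 98 to 100. Over all genes, 340 higher and 201 lower became 613 and 495 with DESeq2, 215 higher in the 4-digit series, 528 lower in the 98 to 100 series, 308 lower with the number series as a covariate and 328 lower without a filter. With libraries left out they were 151 to 710 and 71 to 534. DESeq2 called 4 ADAMTS relatives and 6 stellate markers, and the 4-digit series 0 ADAMTS relatives, 0 transcription factors and 1 docking partner. The 98 to 100 series called 0 ADAM proteases, 1 docking partner, 5 stellate markers and 2 macrophage markers.

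Directions turned for genes that were not called: Timp3 was at 0.0484 with the number series as a covariate, 0.33 among the animals numbered 98 to 100, and between −0.206 and 0.0336 with libraries left out. Adamtsl4 was at −0.028 in the 4-digit series, and Adamtsl5 at −0.0329 in the 98 to 100 series and between −0.000974 and 0.272 with libraries left out. The cause was not tested.

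The replicate numbers did not pair the samples: same-numbered libraries had correlations of deviations from −0.147 to 0.122. With the replicate number as a block 9 members were called higher, 6 of them among the 8, and Mmp7 was at 3.88. Mmp15 was among those gained (edgeR adjusted p = 0.0183). Depth limits what can be said of the 19 members that did not pass the filter.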
